A study of Mus musculus with 12 samples.

Results

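The antiviral interferon-stimulated genes are genes that cells switch on after they meet type I or type III interferon, and 37 of them were named for the description given here. They were picked by symbol for their function as sensors, transcription factors and effectors of the antiviral state, with no measured value in the rule. The choice was made with earlier results of these data known, so it was not blind to them. A gene was measured where the array annotation gave a probe set that names it alone, which held for 35 of the 37 genes, among 19937 genes in all. Isg15 was left out because its 1 probe set also names another gene, and Ifi44 was not analysed here. Ifit3 and Ifit3b are near-identical copies, and Oas1a, Trim12a and Sp100 each have a further probe set shared with other genes that was not used. The values of these 4 genes are uncertain to that extent.

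The RNA came from Lewis lung carcinoma, a transplantable mouse tumour line, resected from the lungs of female mice of the C57BL/6 strain, and can include host cells. There were 4 groups of 3 Affymetrix arrays: wild type hosts kept in air, wild type hosts exposed to smoke, and RelA/p65 deficient hosts kept in air or exposed to smoke. RelA/p65 is a subunit of NF-kB, and the series title speaks of myeloid cells, but the labels do not name the promoter, the cell type or the part of the gene behind the deficiency. Nor do they say whether the 3 replicates came from separate animals, so each p-value reflects the spread between samples of a group, and that spread may be technical.

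Rela itself was not lower in the arrays labelled deficient. It was higher by 0.20 ± 0.07 (log2 difference ± SE) in air (limma, adjusted p = 0.0285) and by 0.23 ± 0.07 in smoke (limma, adjusted p = 0.00873), so every genotype direction below rests on the labels alone. "Deficient arrays" stands below for the arrays labelled RelA/p65 deficient. Array medians lay between 6.78 and 6.88 on the log2 scale, the correlation across genes between arrays of the same group was 0.990 to 0.998, and precision is limited by the small number of arrays. In bulk tissue, fewer cells of a type and less RNA per cell cannot be told apart.

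Type I and type III interferons bind receptors that act through the kinases Jak1 and Tyk2 and activate a transcription factor complex that includes Stat2 and Irf9. That complex binds a short repeat of GAAA, the interferon-stimulated response element, in the promoters of its targets. The products sense foreign RNA and DNA, cut or trap viral RNA, block its translation and hold back budding particles. Irf7 closes a loop by raising the transcription of the interferon genes, and Usp18 damps the receptor.

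The response element can be seen in the promoters of several members. The 5 promoters below are shown because their genes cover the range of behaviour described later: Ifit1 and Ifit3 were among the members with the largest genotype differences, Rsad2 was the member called higher with smoke in deficient hosts, Trim12a fell most with smoke, and Eif2ak2 did not pass the test in any comparison. Each window runs from 250 bases before to 50 bases after the start of the gene in RefSeq (GRCm38.p6), read 5′ to 3′ on the strand of the gene. Capitals mark the response element as searched for here, GAAA, any 2 bases and GAAA again, or TTTC, any 2 bases and TTTC where it lies on the other strand. The windows are chr19:34640639-34640938 (plus strand) for Ifit1, chr19:34583279-34583578 (plus strand) for Ifit3, chr12:26456403-26456702 (minus strand) for Rsad2, chr7:104315446-104315745 (minus strand) for Trim12a and chr17:78882523-78882822 (minus strand) for Eif2ak2.
Ifit1: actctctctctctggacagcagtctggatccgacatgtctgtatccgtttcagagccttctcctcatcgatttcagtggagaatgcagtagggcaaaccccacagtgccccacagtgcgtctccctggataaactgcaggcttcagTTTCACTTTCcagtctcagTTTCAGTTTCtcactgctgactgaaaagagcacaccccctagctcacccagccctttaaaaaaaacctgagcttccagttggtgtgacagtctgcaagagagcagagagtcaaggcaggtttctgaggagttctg
Ifit3: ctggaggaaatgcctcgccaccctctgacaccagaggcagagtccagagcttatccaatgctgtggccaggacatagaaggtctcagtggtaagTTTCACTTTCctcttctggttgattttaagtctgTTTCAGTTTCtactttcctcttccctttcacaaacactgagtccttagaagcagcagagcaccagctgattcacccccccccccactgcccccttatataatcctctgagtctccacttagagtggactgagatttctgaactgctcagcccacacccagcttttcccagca
Rsad2: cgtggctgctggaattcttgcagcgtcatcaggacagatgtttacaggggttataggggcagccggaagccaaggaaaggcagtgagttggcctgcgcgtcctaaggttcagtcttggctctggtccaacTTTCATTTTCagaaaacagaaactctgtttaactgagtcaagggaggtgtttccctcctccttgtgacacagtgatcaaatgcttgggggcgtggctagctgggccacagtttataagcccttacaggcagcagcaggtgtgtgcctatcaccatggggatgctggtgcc
Trim12a: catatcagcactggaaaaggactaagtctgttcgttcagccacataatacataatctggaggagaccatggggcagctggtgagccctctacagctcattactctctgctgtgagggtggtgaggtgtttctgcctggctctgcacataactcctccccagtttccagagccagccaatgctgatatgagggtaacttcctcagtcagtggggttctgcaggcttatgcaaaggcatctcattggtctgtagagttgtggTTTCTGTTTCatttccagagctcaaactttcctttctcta
Eif2ak2: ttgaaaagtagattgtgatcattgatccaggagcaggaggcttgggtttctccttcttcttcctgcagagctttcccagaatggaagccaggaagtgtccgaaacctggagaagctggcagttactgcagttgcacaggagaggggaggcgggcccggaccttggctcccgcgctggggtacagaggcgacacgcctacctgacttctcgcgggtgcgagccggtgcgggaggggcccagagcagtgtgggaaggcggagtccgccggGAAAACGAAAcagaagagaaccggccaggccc

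Ifit1 and Ifit3 each held 2 matches upstream of the start, with the same letters, TTTCACTTTC followed by TTTCAGTTTC. With negative positions counted back from the start, they lay at -104 to -95 and -85 to -76 in Ifit1, and at -156 to -147 and -122 to -113 in Ifit3. Rsad2 held 1 match at -120 to -111, while those of Trim12a (bases 11 to 20) and Eif2ak2 (bases 19 to 28) lay after it. The promoter table listed 28 of the 37 genes, and 14 of the 28 (50.0%) held the element on either strand, overlapping copies included, against 3.98% of all 26994 genes in the table. A match describes letters in a window and does not show that a factor bound there.

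Before any group was compared, the spread within wild type air had to be described, because wild type air replicate 1 stood apart for these genes. Averaged over the 35 members, the log2 level was 8.25 in replicate 1, 7.64 in replicate 2 and 7.74 in replicate 3. Replicate 1 was the highest of the 3 arrays for 34 of 35 members, against 31.8% of all genes, the exception being Trim12a. Irf7, the interferon-induced regulator of interferon genes, read 8.58, 7.07 and 7.28 in replicates 1, 2 and 3, so that replicate 1 exceeded the mean of the others by 1.41. The same excess was 1.25 for the Z-nucleic-acid sensor Zbp1, 1.21 for Ifit1 and 1.19 for Oasl2, and its median over the members was 0.50. An excess of at least 0.5 was found for 17 of 35 members (48.6%) and for 137 of 19937 genes (0.687%).

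The members also scattered more in wild type air than in the other groups. The median SD of a member over 3 arrays was 0.30 in wild type air, where the median over all genes was 0.095, and 98.2% of genes had a smaller SD than 0.30. It was 0.16 against 0.13 in wild type smoke, 0.054 against 0.064 in deficient air and 0.14 against 0.077 in deficient smoke. In the same array the mean of 9 macrophage and monocyte markers was 9.43, while replicates 2 and 3 had 9.13 and 9.14. That of 8 T and NK markers was 6.54, against 6.43 and 6.39, and that of 5 plasmacytoid dendritic markers was 7.33, against 7.40 and 7.20. The part of these cells in the excess was not tested. In the smoke groups single arrays stood apart for the members too, by less. Wild type smoke replicate 1 was the highest of its group for 30 of 35 members, against 39.0% of all genes, with a median excess of 0.23. That array also departed most over all genes. In it 25.8% of genes lay at least 0.3 from the mean of its group's other arrays, and the next highest share was 14.7%, in wild type smoke replicate 3. Deficient smoke replicate 1 was the lowest for 32 members, against 37.1%, and deficient smoke replicate 2 the highest for 30, against 29.4%, with medians of -0.16 and 0.18. Each comparison of the members is given with and without wild type air replicate 1. Since nearly all members were highest in that array, leaving it out lowers their wild type air mean. The direction in which the comparisons with wild type air then move was therefore set beforehand.

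**Figure D1:**
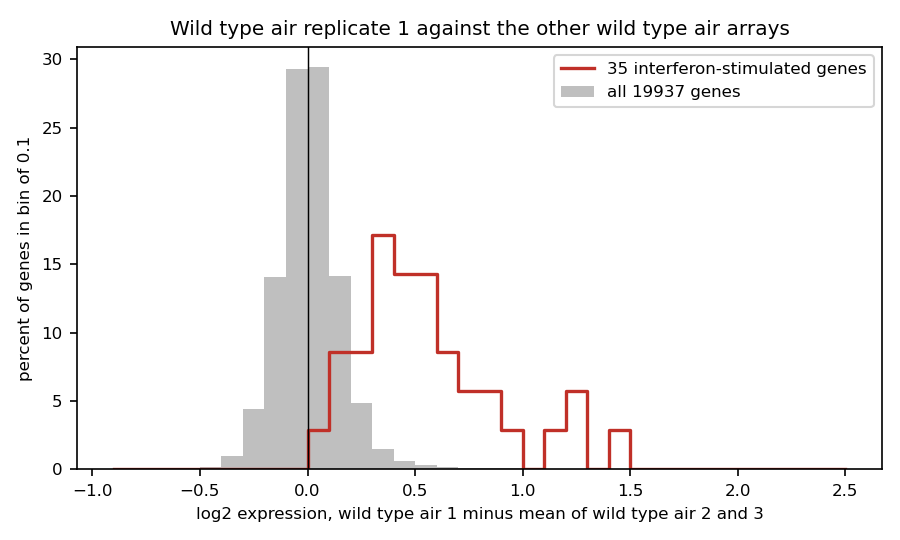
The x axis is the log2 expression of wild type air replicate 1 minus the mean of replicates 2 and 3, in bins of 0.1, and the y axis is the percent of genes per bin, for all 19937 genes (grey bars) and for the 35 members (red line). The grey bars centre near 0, and every member lies to the right of 0, with a median of 0.50 and a highest value of 1.41.

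In air, the antiviral genes were higher in deficient than in wild type hosts, and this was the widest difference seen in the module. Of 35 members, 32 were called higher and 0 lower (limma, adjusted p under 0.05), while 20.5% of all genes were called higher and 18.0% lower. At an unadjusted p under 0.05, 33 members were higher and 0 lower. The median log2 difference was 1.08 over the members and -0.03 over all genes, and 21 members were at least 2-fold higher, which 3.36% of all genes were. Every deficient array lay above every wild type array for 33 members, against 25.6% of all genes, and below for 0, against 26.3%. Oasl1, Eif2ak2 and Trim25 did not pass the test.

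Among the cytosolic sensors, all 4 measured members were higher in air. Zbp1 read 7.94, 6.76 and 6.60 in the wild type arrays and 9.33, 9.33 and 9.30 in the deficient arrays. The deficient arrays lay close together and above all wild type arrays, and the difference of 2.22 ± 0.25 (4.66-fold; limma, adjusted p = 1.14e-05) was the largest of any member in air. Ifih1, the long double-stranded RNA sensor MDA5, read 8.06, 7.72 and 7.87 in wild type and 9.34, 9.42 and 9.40 in deficient hosts, without overlap, a difference of 1.50 ± 0.13 (limma, adjusted p = 1.52e-06). Ddx58, the sensor RIG-I, was higher by 0.62 ± 0.10 and its relative Dhx58 (LGP2) by 0.89 ± 0.15.

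The 3 transcription factors were higher together. Irf9, the DNA-binding subunit of the interferon complex, read 8.65, 8.25 and 8.33 in wild type air and 9.58, 9.64 and 9.58 in deficient air. Its deficient arrays were all above its wild type arrays, by 1.19 ± 0.12 (limma, adjusted p = 4.53e-06). Stat2, its partner, was higher by 1.04 ± 0.10 (limma, adjusted p = 2.69e-06). Irf7, with 9.08, 9.06 and 9.20 in deficient air, was also above each wild type array, and its difference of 1.47 ± 0.28 (limma, adjusted p = 0.000827) came with the wider scatter of wild type air given above. Without replicate 1 it was 1.94.

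Of the IFIT genes, which encode proteins that bind viral RNA ends, all 3 were higher. Ifit3 read 8.53, 7.94 and 8.17 in wild type air and 9.88, 9.90 and 9.92 in deficient air, a difference of 1.69 ± 0.17 (3.23-fold; limma, adjusted p = 3.68e-06) with no overlap. Ifit1 read 8.27, 7.02 and 7.11 against 8.99, 9.06 and 9.27, again with no overlap, and was higher by 1.64 ± 0.26. Ifit2 differed least of the family, by 0.58 ± 0.12 (limma, adjusted p = 0.00196). Of the ISG15 system, the deconjugase Usp18 was higher by 1.42 ± 0.15 and the ligase Herc6 by 0.99 ± 0.15.

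The OAS family includes enzymes that make the short linked adenylates that activate RNase L, and 4 of its 5 measured members were higher in air. The largest difference was that of Oasl2, which read 8.98, 7.79 and 7.80 in wild type and 9.78, 9.92 and 9.81 in deficient arrays, without overlap (1.65 ± 0.23; limma, adjusted p = 7.89e-05). Oas2 differed by 1.32 ± 0.17, Oas1a by 1.02 ± 0.15 and Oas3 by 0.74 ± 0.19. Oasl1, known as a repressor of Irf7 translation, did not pass, with 7.75, 7.60 and 6.77 in wild type and 7.87, 7.70 and 7.82 in deficient air. The wild type arrays of Oasl1 thus ran from 6.77 to 7.75, and replicate 2 lay near replicate 1.

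Mx2, an antiviral GTPase, was higher by 0.84 ± 0.15 in air (limma, adjusted p = 0.000406). Mx1, whose allele in C57BL/6 mice makes no working protein, was higher by 0.59 ± 0.18 (limma, adjusted p = 0.0206). The Mx1 call was lost without wild type air replicate 2 (0.40, adjusted p = 0.0979), wild type air replicate 3 (0.54, adjusted p = 0.0641) or deficient air replicate 3 (0.49, adjusted p = 0.0905).

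Among the 6 other effectors, 5 were higher. Rtp4, an interferon-induced receptor chaperone, was higher by 1.67 ± 0.19 and Rsad2, which encodes viperin, a producer of a chain-terminating nucleotide, by 1.13 ± 0.19. Cmpk2, the nucleotide kinase gene that lies next to Rsad2 in the gene table, was higher by 1.08 ± 0.16, Bst2, the virion tether, by 0.94 ± 0.13 and Samd9l, a translation-blocking restriction factor, by 0.91 ± 0.09. Eif2ak2, the double-stranded RNA-dependent kinase PKR, was the exception. It read 9.14, 8.66 and 8.91 in wild type air and 8.83, 8.84 and 8.88 in deficient air, so the deficient arrays lay inside the wild type range (-0.06 ± 0.12; limma, adjusted p = 0.764).

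Of the TRIM ubiquitin ligases, Trim12a was higher by 1.39 ± 0.10, Trim30a by 1.19 ± 0.16 and Trim21 by 0.77 ± 0.08, while Trim25, which modifies RIG-I, differed by 0.16 ± 0.07 (limma, adjusted p = 0.086). The ADP-ribosylation genes Parp14, Dtx3l and Parp9, which are neighbours in the gene table, were higher by 1.42 ± 0.13, 1.09 ± 0.11 and 1.02 ± 0.12. Sp100, a nuclear body protein, Xaf1, a gene linked to cell death, and Ifi35 were higher by 1.37 ± 0.13, 1.10 ± 0.14 and 0.59 ± 0.08. All 6 genes had deficient arrays above every wild type array. Without wild type air replicate 1, 33 members were called higher and 0 lower in air, against 18.6% and 15.1% of all genes, and the median difference was 1.22.

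**Figure D2:**
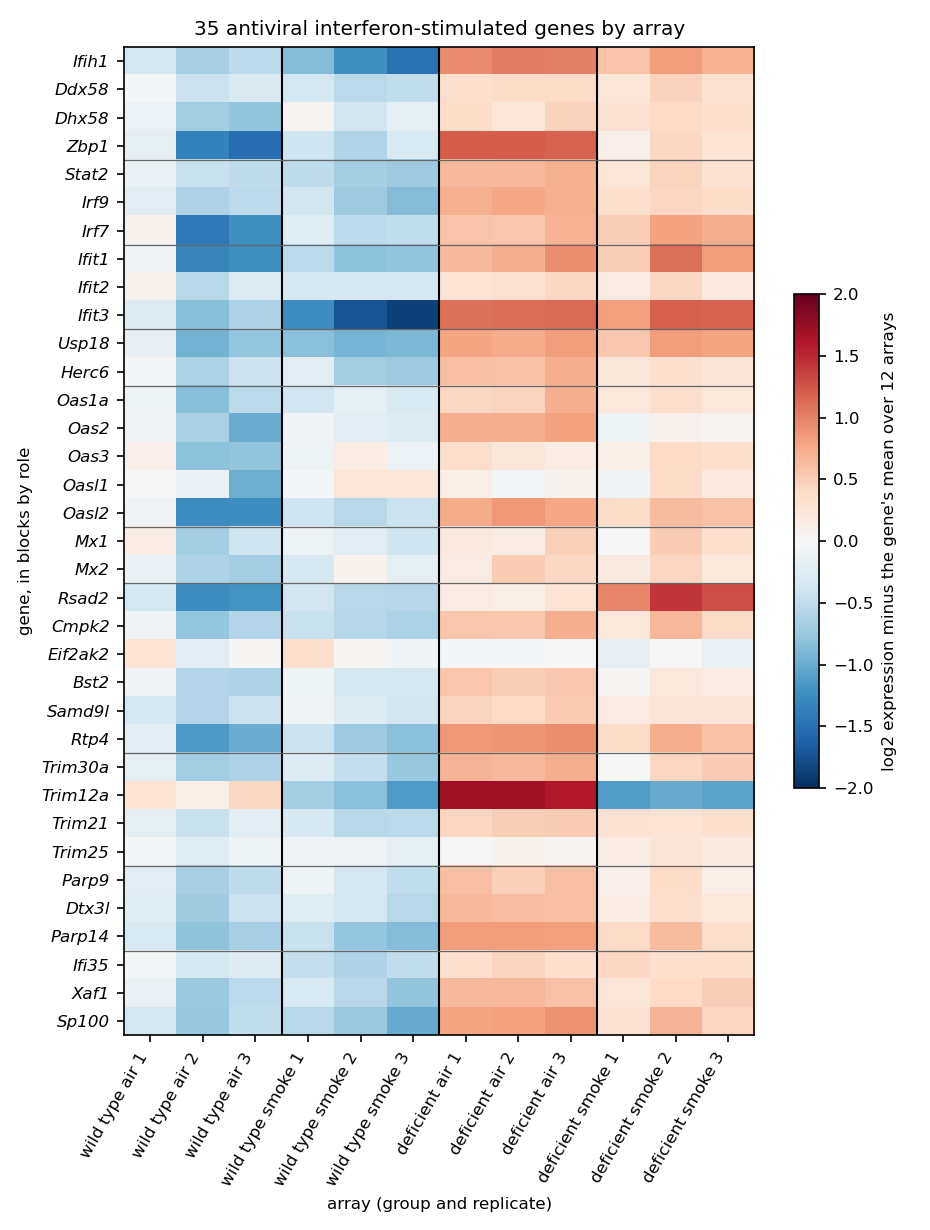
Rows are the 35 members in blocks by role, columns are the 12 arrays in their 4 groups, and colour is log2 expression minus the mean of the gene over all arrays (red above, blue below). Most rows are blue in both wild type groups and red in both deficient groups, wild type air replicate 1 is paler than replicates 2 and 3, and Trim12a is blue in both smoke groups.

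In smoke, the deficient hosts again had the higher antiviral genes. The test in limma called 30 of 35 members higher and 0 lower, against 22.7% and 37% of all genes, with 30 and 0 at an unadjusted p under 0.05. The median difference was 0.80 over the members and -0.14 over all genes. At least 2-fold differences were found for 10 members, against 7.41% of all genes, and the deficient arrays lay above without overlap for 30 members, against 23.6%, and below for 0, against 37.6%. With every array centred on its median, 25 members were higher (17.8% of all genes) and 2 lower (60.1%), the 2 being Eif2ak2 (-0.36, adjusted p = 0.0186) and Trim12a. The wild type smoke arrays hold no replicate of wild type air, and without wild type air replicate 1, which only changes the shared estimate of spread here, 31 members were called higher and 0 lower (22.4% and 35.9% of all genes).

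Ifit3 had the largest genotype difference of any member in smoke. It read 7.55, 7.05 and 6.91 in wild type smoke and 9.61, 9.98 and 9.96 in deficient smoke. The groups were more than 2 log2 units apart at their nearest arrays, and the difference was 2.68 ± 0.17 (6.41-fold; limma, adjusted p = 1.7e-08). Ifih1 followed, with 7.53, 7.16 and 6.90 against 8.97, 9.22 and 9.08, no overlap and a difference of 1.89 ± 0.13 (limma, adjusted p = 5.86e-08). Rsad2 read 7.80, 7.60 and 7.59 in wild type smoke and 9.13, 9.59 and 9.44 in deficient smoke, again apart, by 1.73 ± 0.19 (limma, adjusted p = 5.27e-06). Usp18 was higher by 1.61 ± 0.15, Ifit1 by 1.52 ± 0.26, Sp100 and Rtp4 by 1.23 each and Parp14 by 1.15 ± 0.13.

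In smoke, 2 of the 5 OAS members passed: Oasl2 (0.99 ± 0.23; limma, adjusted p = 0.00291) and Oas1a (0.53 ± 0.15; limma, adjusted p = 0.00786). Oas2 read 7.13, 6.98 and 6.92 in wild type smoke and 7.09, 7.28 and 7.25 in deficient smoke, and the groups overlapped (0.20 ± 0.17; limma, adjusted p = 0.314). Oas3 and Oasl1 overlapped too, with differences of 0.31 ± 0.19 and 0.02 ± 0.20. Eif2ak2 (-0.22 ± 0.12) and Trim12a (-0.18 ± 0.10) were the other members that did not pass.

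Several calls in smoke were lost on leaving out 1 array, while the difference changed little or moderately. Zbp1, higher by 0.70 ± 0.25 (limma, adjusted p = 0.0297), missed the limit without wild type smoke replicate 2 (adjusted p = 0.0951), deficient smoke replicate 2 (0.0934) or deficient smoke replicate 3 (0.0637), with differences from 0.61 to 0.69. Bst2, higher by 0.37 ± 0.13, missed it without wild type smoke replicate 2 or 3 (adjusted p = 0.0821 and 0.076) or deficient smoke replicate 2 or 3 (0.0825 and 0.0643), with differences from 0.33 to 0.35. Mx1, higher by 0.53 ± 0.18, missed it without the same 4 arrays (adjusted p from 0.0546 to 0.105), with differences from 0.41 to 0.53. Mx2, higher by 0.43 ± 0.15, missed it without wild type smoke replicate 1 (0.065), wild type smoke replicate 3 (0.0605) or deficient smoke replicate 2 (0.0929), with differences from 0.34 to 0.40. Dhx58, higher by 0.50 ± 0.15, missed it without wild type smoke replicate 2 (0.40, adjusted p = 0.0576).

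Taking both exposures at once, all 6 deficient arrays lay above all 6 wild type arrays for 29 of 35 members, wild type air replicate 1 included, and below them for 0. Of all genes, 17.9% lay above and 17.1% below. The 6 members with overlap were Oas2, Oas3, Oasl1, Mx1, Eif2ak2 and Trim12a. For Irf7, the lowest deficient array was 9.0 and the highest wild type array 8.58. The gap was narrow for Bst2, with 9.88 against 9.81, and for Trim25, with 9.42 against 9.37.

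**Figure D3:**
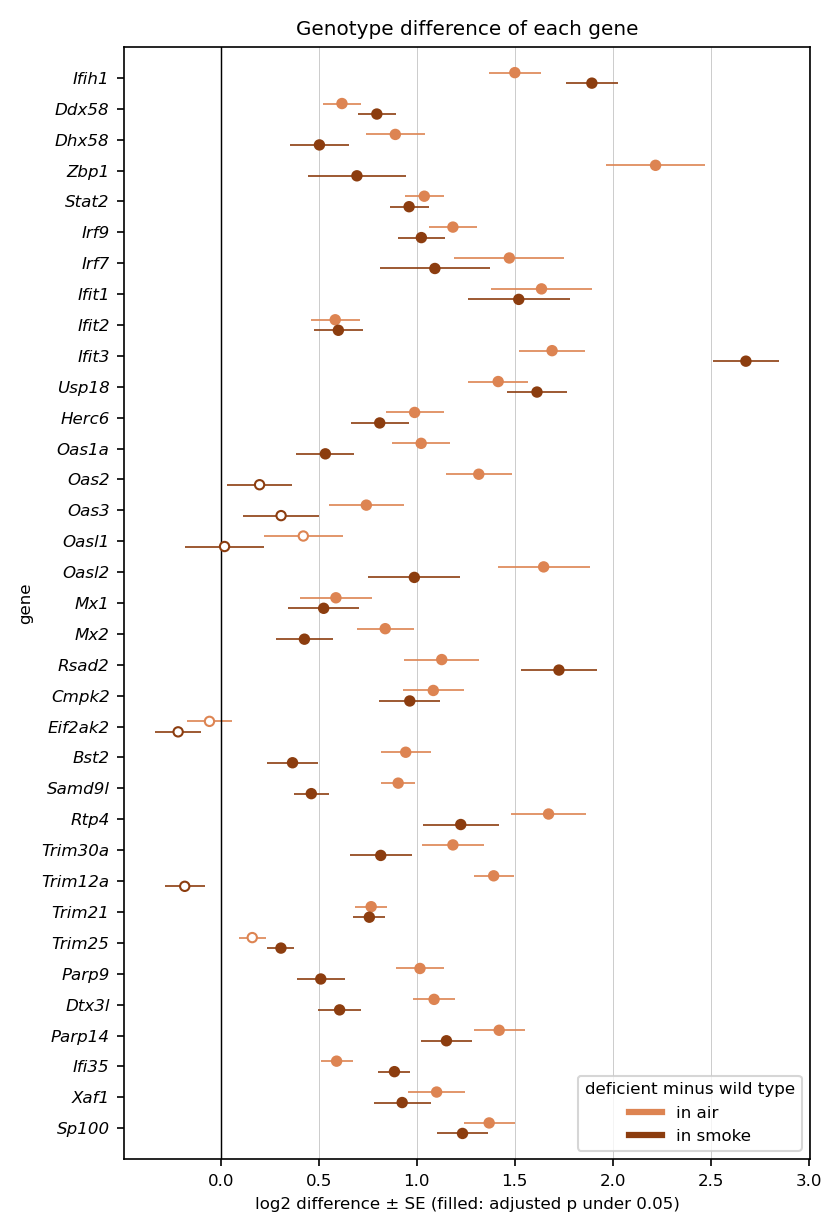
Points are the log2 difference, deficient minus wild type, of each of the 35 members in air (light) and in smoke (dark), bars are the SE from limma, and filled points have an adjusted p under 0.05. Most points lie to the right of 0; Ifit3 in smoke (2.68) and Zbp1 in air (2.22) are farthest out, and Eif2ak2 lies left of 0 in both exposures without passing the test.

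The genotype differences were also set beside the promoters. The 13 measured members with a match had a median genotype difference in air of 1.04 (from -0.06 to 1.69), with 12 called higher. The 13 measured members whose listed promoter had no match had a median of 1.08 (from 0.16 to 1.65), with 11 called higher. The medians were 1.22 and 1.20 without wild type air replicate 1. The difference between these classes was not tested.

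With smoke in wild type hosts, 4 of 35 antiviral genes fell and 0 rose past the limma test, against 14.0% and 15.0% of all genes. The share called lower thus lay near that of all genes. At an unadjusted p under 0.05, 7 members were lower and 8 higher. Smoke arrays lay below air arrays without overlap for the same 4 members and above for 0, against 16.2% and 20.8% of all genes. The median difference over the members was 0.07, and over all genes 0.08. Trim12a read 8.35, 8.21 and 8.49 in air and 7.39, 7.24 and 6.95 in smoke. It fell by 1.16 ± 0.10 (limma, adjusted p = 1.77e-06), with every smoke array below every air array. Ifit3, whose arrays are given above, fell by 1.04 ± 0.17 (limma, adjusted p = 0.00043), and Ifih1 fell by 0.69 ± 0.13 (limma, adjusted p = 0.00188), both without overlap. Ifi35 fell by 0.31 ± 0.08 (limma, adjusted p = 0.0139), a call that was lost without wild type air replicate 1 (adjusted p = 0.0573) or wild type smoke replicate 2 (adjusted p = 0.0588), and with the 6 arrays fitted alone (adjusted p = 0.0736). Ifit3b, the near-identical copy of Ifit3, fell by 0.90 ± 0.11.

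The counts in this comparison moved with single arrays, in both directions. Without wild type air replicate 1, 13 members were called higher, against 12% of all genes, and 3 lower, against 12.4%, and the median difference was 0.18. All 5 OAS genes were among the 13, with Oasl2 higher by 0.79, Oas3 by 0.78, Oasl1 by 0.70, Oas2 by 0.63 and Oas1a by 0.40. The others were Zbp1 (1.01), Irf7 (0.92), Rsad2 (0.73), Dhx58 (0.58), Ifit1 (0.56), Mx2 (0.50), Rtp4 (0.41) and Bst2 (0.37). Irf7 is an example, since its smoke arrays read 8.27, 7.99 and 8.02, below air replicate 1 at 8.58 and above air replicates 2 and 3 at 7.07 and 7.28. Ifih1, Ifit3 and Trim12a were lower with and without the array. With wild type air replicate 2 left out, 0 members were higher and 8 lower, against 15.6% and 13.7% of all genes, as Ddx58, Stat2, Trim21 and Usp18 joined the lower ones. Without wild type smoke replicate 1, 2 were higher and 8 lower, against 27.2% and 17.1%. With array weights, 3 were higher and 11 lower, against 31.3% and 19.9%. With all arrays centred on their medians, 8 members were higher and 4 lower, against 38.1% and 11.3% of all genes.

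With smoke in deficient hosts, few of the antiviral genes passed the test. With the spread pooled over all 12 arrays, 1 member was called higher and 2 lower, against 0.692% and 1.72% of all genes, and the median difference was -0.23, against 0.00 over all genes. Smoke arrays lay below air arrays without overlap for 19 of 35 members, against 13.7% of all genes, and above them for 2, against 8.97%. Fitted on the 6 deficient arrays alone, the test called 11 members lower and 1 higher, against 3.58% and 1.53% of all genes. Without wild type air replicate 1, which enters only through the pooled spread, 6 were lower and 1 higher, against 1.78% and 0.632%.

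Trim12a changed most. It read 9.77, 9.77 and 9.68 in deficient air and 6.96, 7.06 and 7.01 in deficient smoke. All smoke arrays were far below all air arrays, and it fell by 2.73 ± 0.10 (6.64-fold; limma, adjusted p = 8.99e-09). Trim30a, another gene of the family, read 10.25, 10.21 and 10.28 in air and 9.57, 10.00 and 10.06 in smoke, lower in each array but short of the test (-0.37 ± 0.16; limma, adjusted p = 0.414). Trim12a has close relatives in the mouse Trim5 cluster, and signal from them on its probe set cannot be told apart from its own.

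Rsad2 went the other way. From 8.33, 8.29 and 8.43 in deficient air it was at 9.13, 9.59 and 9.44 in deficient smoke, with no overlap, and rose by 1.04 ± 0.19 (limma, adjusted p = 0.0105). Cmpk2 beside it read 8.07, 8.07 and 8.26 in air and 7.73, 8.18 and 7.91 in smoke, where the groups overlapped (-0.19 ± 0.16; limma, adjusted p = 0.847). The Rsad2 call missed the limit with deficient air replicate 1 or 2 left out (adjusted p = 0.0538 and 0.0546), and with deficient smoke replicate 2 or 3 left out (0.0565 and 0.0536), while its difference stayed between 0.94 and 1.04 in these 4 fits and the full one.

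Oas2 read 7.92, 7.92 and 8.0 in deficient air and 7.09, 7.28 and 7.25 in deficient smoke, without overlap, and fell by 0.74 ± 0.17 (limma, adjusted p = 0.0356). That call was lost without any 1 of the 6 deficient arrays (adjusted p from 0.0876 to 0.161) or without wild type smoke replicate 2 (0.0554), while the difference lay between -0.68 and -0.77. Zbp1 read 8.22, 8.54 and 8.39 in deficient smoke, below each deficient air array, but its difference of -0.94 ± 0.25 missed the limit (limma, adjusted p = 0.0854) and passed it without wild type air replicate 1 (adjusted p = 0.000173) or replicate 3 (0.0443).

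**Figure D4:**
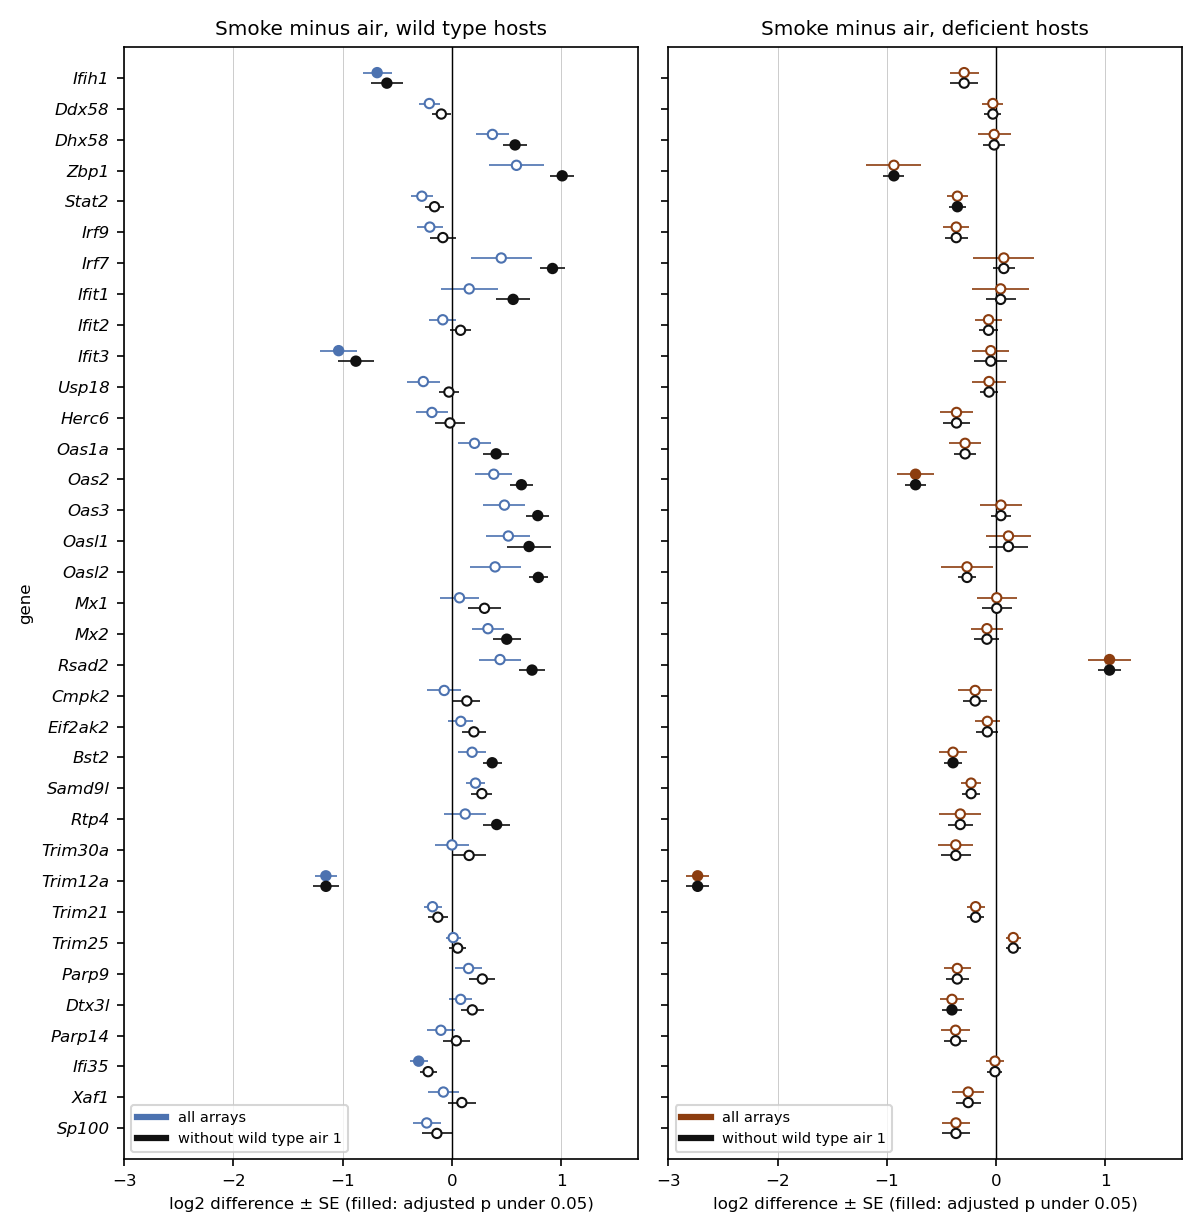
Points are the log2 difference, smoke minus air, of each of the 35 members in wild type hosts (left) and in deficient hosts (right), with all arrays (coloured) and without wild type air replicate 1 (black), bars are the SE from limma, and filled points have an adjusted p under 0.05. On the left, black points such as Zbp1 (1.01) lie to the right of the coloured ones (0.59), and on the right Trim12a (-2.73) and Rsad2 (1.04) are farthest from 0.

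Whether smoke acted differently in the genotypes was tested with the interaction, the smoke difference in deficient hosts minus that in wild type hosts. It was past the test for 6 of 35 members, 1 upward and 5 downward, against 8.89% and 5.7% of all genes, and its median was -0.18 over the members and -0.08 over all genes. The upward member was Ifit3 (0.99 ± 0.24; limma, adjusted p = 0.0119), lower with smoke in wild type hosts and nearly level in deficient hosts (-0.05 ± 0.17). Trim12a (-1.58 ± 0.15; limma, adjusted p = 4.51e-06), Zbp1 (-1.52 ± 0.35; limma, adjusted p = 0.00997) and Oas2 (-1.12 ± 0.24; limma, adjusted p = 0.00537) had the larger downward values.

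Bst2 (-0.58 ± 0.18; limma, adjusted p = 0.0492) and Samd9l (-0.44 ± 0.12; limma, adjusted p = 0.0289) were near the limit. The Bst2 interaction missed it when any array other than wild type air replicate 1 was left out (adjusted p from 0.0555 to 0.128). Samd9l missed it without wild type air replicate 2 or 3, deficient air replicate 1 or 3, or deficient smoke replicate 1 or 2 (adjusted p from 0.0525 to 0.0788). Without wild type air replicate 1 the interaction was past the test for 1 member upward and 14 downward, against 8.5% and 5.64% of all genes, with a median of -0.41. The downward shift follows from leaving out the array in which nearly all members were highest, so the added calls are no separate evidence. The members gained were Dhx58, Irf7, Oas1a, Oas3, Oasl2, Mx2, Rtp4, Parp9 and Dtx3l.

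The rest of the interferon pathway was read from lists drawn up by function. Of 15 measured interferon ligand genes, 0 were higher and 1 lower in deficient hosts in air (Ifna4, -0.22 ± 0.08), and 0 were higher and 5 lower in smoke, with Ifna16 lowest at -0.69 ± 0.18. Of all genes, 20.5% were higher and 18.0% lower in air and 22.7% and 37% in smoke, so the share of ligands called lower in smoke lay near that of all genes. The same counts were found at an unadjusted p under 0.05 in limma. With smoke in wild type hosts 3 of 15 ligands were called higher, Ifnab (0.42), Ifnl2 (0.44) and Ifnk (0.30). That lay near the share of all genes called higher there, 15.0%. With smoke in deficient hosts 0 of 15 passed, where 0 were higher and 1 lower at an unadjusted p under 0.05. The mean level of the list ran from 5.40 to 5.55 in wild type air, from 5.47 to 5.78 in wild type smoke, from 5.46 to 5.47 in deficient air and from 5.34 to 5.52 in deficient smoke. These means lay below the array medians of 6.78 to 6.88, though Ifna5 and Ifnl2 lay above them. Whether the dim ligand genes were expressed at all was not tested, so their differences are uncertain.

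Receptor genes were higher with the deficient label. In air 5 of 6 were called higher: Il10rb (0.78), Ifnar2 (0.75), Ifngr1 (0.69), Ifngr2 (0.65) and Ifnar1 (0.33). In smoke 5 of 6 were again higher, among them Il10rb (0.81), Ifnar2 (0.70) and the type III receptor chain Ifnlr1 (0.70). Of 8 measured signalling genes, 3 were higher and 1 lower in air, and 5 higher and 1 lower in smoke. Beside both lists, 20.5% of all genes were higher and 18.0% lower in air, and 22.7% and 37% in smoke. With 8 genes, the signalling counts in air do not stand out from these shares. Irf1, a broad activator of interferon-stimulated genes, was higher by 1.24 ± 0.10 in air and 0.82 ± 0.10 in smoke, and it fell by 0.65 ± 0.10 with smoke in deficient hosts (limma, adjusted p = 0.00259).

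Of 13 measured sensing genes, 7 were higher and 1 lower in air, and 3 were higher and 3 lower in smoke, where the share called higher was about that of all genes (22.7%). The endosomal RNA receptors Tlr7 and Tlr3 were higher in air by 1.41 ± 0.16 and 1.11 ± 0.06, while the DNA-pathway adaptor Sting1 was lower (-0.57 ± 0.08). A further 23 interferon-stimulated genes outside the module were also measured. In air 20 were higher and 2 lower, and in smoke 15 were higher and 1 lower, beside the same shares of all genes. Ifit3b (1.56), Ifi27l2a (1.54) and the nucleotide hydrolase Samhd1 (1.15) led in air, and Pml, the scaffold of nuclear bodies, was lower in air (-0.60 ± 0.08) and smoke (-0.47 ± 0.08). Without wild type air replicate 1, 0 ligands and 0 signalling genes were lower in air, 16 of the 23 further genes were higher in smoke, 1 ligand rose with smoke in wild type hosts, and the other genotype counts of these 5 lists were the same.

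Markers of several cell types moved with genotype as well. Of all genes, 20.5% were called higher and 18.0% lower in air, and 22.7% and 37% in smoke. All 8 T and NK markers were higher in deficient hosts in air and in smoke, and their mean level ran from 6.39 to 6.54 in wild type air, 5.96 to 6.24 in wild type smoke, 7.69 to 7.81 in deficient air and 7.29 to 7.42 in deficient smoke. Of 4 B cell markers, 3 were higher in each exposure, with a mean level from 7.17 to 7.37, 5.85 to 6.45, 7.97 to 8.05 and 7.47 to 7.54 in the same order of groups. The 9 alveolar epithelial and 7 endothelial markers were all higher in both exposures; the alveolar mean ran from 10.98 to 11.20, 8.95 to 9.05, 11.89 to 11.93 and 11.89 to 12, and the endothelial mean from 9.90 to 10.09, 8.73 to 8.84, 10.95 to 10.99 and 10.95 to 11.14.

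Macrophage and monocyte markers did not follow the antiviral genes in every comparison. They were higher in deficient hosts in air for 8 of 9 markers, against 20.5% of all genes. In smoke, however, 1 marker was higher and 6 were lower, against 22.7% and 37% of all genes. Smoke in wild type hosts raised 8 markers, against 15.0% of all genes. Their mean level ran from 9.13 to 9.43 in wild type air, 10.14 to 10.29 in wild type smoke, 9.91 to 10.00 in deficient air and 9.69 to 9.85 in deficient smoke. Neutrophil markers were higher in deficient hosts in air for 6 of 7 and in smoke for 5 of 7 with 1 lower, beside the same shares. Of 5 plasmacytoid dendritic markers 2 were higher and 1 lower in air and 1 higher and 1 lower in smoke. With 5 markers, the plasmacytoid dendritic counts do not stand out from the shares of all genes. Values of this array type have no zero, so no marker was at 0. The part of any of these cells in the genotype difference of the antiviral genes was not tested.

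**Figure D5:**
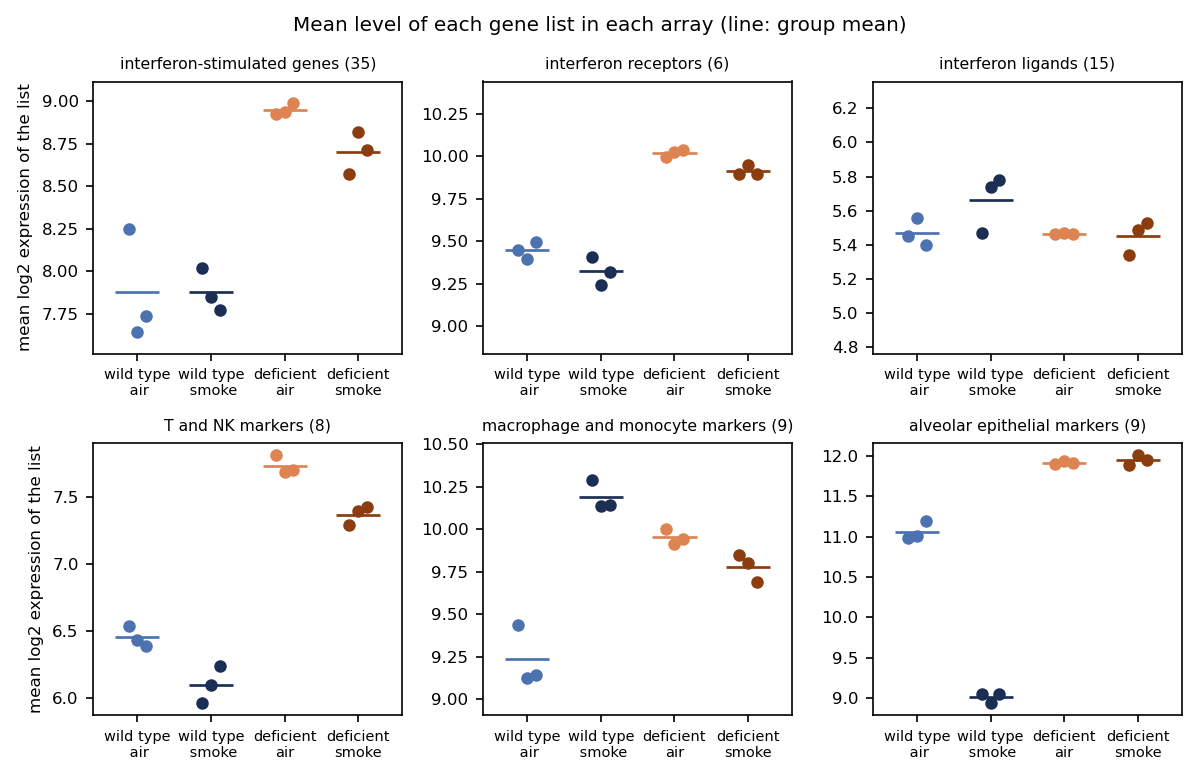
Each panel shows the mean log2 expression of 1 gene list in each of the 12 arrays, by group, with a line at the group mean; the number of measured genes is in the panel title and axes do not start at 0. The antiviral genes, receptors and T and NK markers are higher in both deficient groups, the ligand list is not, and the macrophage and monocyte list is highest in wild type smoke (10.14 to 10.29).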

How the data were processed

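The deposited table holds log2 expression values that the authors made with RMA in Affymetrix Expression Console, per the submitters' processing notes; RMA includes background correction and quantile normalization, which can narrow differences that shift most genes. The genome build behind it is not given in the sources used here. Of 34760 probe sets, 21640 name 1 gene, 1321 name several and 11799 are not listed in the platform annotation; the first were kept, with the probe set of highest mean per gene (19937 genes). Groups were taken from the labels.

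From these values, limma 3.58.1 (R 4.3.3) fitted the 4 group means over the 12 arrays (residual df 8, prior df 4.83), with 2-sided tests, Benjamini-Hochberg adjustment over all genes of a comparison and a limit of 0.05. Standard errors are moderated. Medians over members carry no test. All 37 members were to be named, with pathway genes past the limit; the members and lists were chosen with earlier results of these data known. Alternatives were a filter on dim genes (3 or more arrays at a log2 value of 6 or above), the mean of probe sets, an intensity trend, array weights, quantile normalization, median centring, a replicate block, 6 arrays alone and leaving out each array. The fit was tested on simulated data. Promoters come from RefSeq (GRCm38.p6). Tables and figures used Python 3.11.15, pandas 2.3.3 and matplotlib 3.10.9.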

Additional observations from a re-analysis of the deposited data

Results flagged for a closer look

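For 6 members and 12 pathway genes, the smoke difference itself differed between the genotypes by the interaction term in limma (deficient minus wild type, adjusted p under 0.05). Of all genes, 8.89% were past this test upward and 5.7% downward. Of the 35 members, 1 was past it upward and 5 downward, a lower share than all genes upward and a higher share downward. Without wild type air replicate 1, 1 member was past it upward and 14 downward, against 8.5% and 5.64% of all genes. That array was the highest of its group for 34 of 35 members, so leaving it out lowers their interaction values by construction. The share of all genes is therefore not a like comparison for that fit. Over all arrays left out 1 at a time, 3 to 14 members were downward. With all arrays, the values of the downward members were -1.58 for Trim12a, -1.52 for Zbp1, -1.12 for Oas2, -0.58 for Bst2 and -0.44 for Samd9l. That of the upward member, Ifit3, was 0.99. The values of Bst2 and Samd9l missed the limit when single arrays were left out (adjusted p up to 0.128 and 0.0788). Among interferon ligands and receptors they were -0.86 for Ifna16, -0.41 for Ifnab and 0.48 for Ifnlr1, and without wild type air replicate 1 the test was passed by 0 of 15 ligands. The signalling inhibitor Pias1 had 0.46. Among sensing genes they were -1.51 for Tlr7, -0.81 for Irf5, -0.57 for Ikbke and -0.54 for Aim2. Among further interferon-stimulated genes they were -0.90 for Ifi27l2a, -0.74 for Epsti1, 0.70 for Ifit3b and 0.64 for Ube2l6. Tlr7, the endosomal sensor of single-stranded RNA, was higher with smoke in wild type hosts (0.80) and lower in deficient hosts (-0.70), both past the test.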

How the results depend on the processing

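The genotype difference in air kept its direction and its count within 1.5 times under every alternative run: 31 to 33 members were higher and 0 lower without 1 array, with a median from 0.96 to 1.22. Of all 19937 genes, 3585 to 4456 were higher and 2862 to 4123 lower in air without 1 array. In smoke, 26 to 31 members were higher without 1 array (median from 0.72 to 0.85), and members called lower numbered 0 in the reported fit, 0 to 1 without 1 array, 1 with array weights, 2 with quantile normalization and 2 with median centring. Of all genes, 7368 were lower as reported, 9707 with array weights, 7623 with quantile normalization and 11974 with median centring. Without 1 array, 4124 to 4729 of all genes were higher and 5729 to 8743 lower. For smoke in wild type hosts, members called higher numbered 0 as reported, 3 with array weights, 4 with quantile normalization, 8 with median centring and 0 to 13 without 1 array, and members called lower numbered 4 as reported, 11 with array weights and 3 to 8 without 1 array. Of all 19937 genes, 2991 were higher as reported, 6250 with array weights, 4218 with quantile normalization and 7600 with median centring. Without 1 array, 1444 to 5420 of all genes were higher and 2251 to 3404 lower. Lower genes numbered 2787 as reported and 3961 with array weights. The member median there ran from -0.067 to 0.18 without 1 array. For smoke in deficient hosts, members called lower numbered 2 as reported, 12 with array weights, 11 with 6 arrays alone, 1 with the replicate block and 1 to 6 without 1 array. Members called higher numbered 1 as reported and 0 to 1 without 1 array. Of all genes, 343 were lower as reported, 892 with array weights, 713 with 6 arrays alone and 311 with the replicate block. Without 1 array, 194 to 506 of all genes were lower and 63 to 211 higher, and 138 were higher as reported. For the interaction, 1 member was upward as reported, 5 with array weights and 1 to 2 without 1 array, downward members numbered 3 to 14 and the median ran from -0.41 to -0.068. Of all genes, 1773 were upward as reported, 2945 with array weights and 1483 to 2338 without 1 array. Downward genes numbered 725 to 2631 without 1 array. Median centring moved the median difference of all genes in smoke between genotypes from -0.14 to -0.28, and the share of calls that were higher, over all genes, from 51.8% to 77.1% for smoke in wild type hosts, from 53.2% to 39.6% and from 38.0% to 22.9% for genotype in air and in smoke, and from 60.9% to 41.4% for the interaction. The cause of these shifts was not tested. Same-numbered arrays deviated together in some pairs and not in others (r from -0.36 to 0.37, over 0.1 in 7 of 18 pairs). The best partner had the same number in 17 of 36 cases. These values do not settle whether the samples were paired, and the numbers were not taken to pair them. The block cost 1 call, that of Oas2 with smoke in deficient hosts (limma, adjusted p = 0.0502). The 3 arrays per group and the scatter of wild type air limit what can be called.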
